A study of Mus musculus with 6 samples.

Results

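The microRNAs (miRNAs) described here are those of the miR-23, miR-27 and miR-24 clusters, measured in 1 small RNA library of mouse liver. They were chosen by name, as every mouse entry of miR-23a, miR-23b, miR-27a, miR-27b and miR-24, whatever its arm or copy. The rule found 11 of the 1963 distinct mouse sequences in the deposited table. These are mmu-miR-23a-3p, mmu-miR-23a-5p, mmu-miR-23b-3p, mmu-miR-23b-5p, mmu-miR-27a-3p, mmu-miR-27a-5p, mmu-miR-27b-3p, mmu-miR-27b-5p, mmu-miR-24-3p, mmu-miR-24-1-5p and mmu-miR-24-2-5p. The mice were treated with adeno-associated virus (AAV), a vector that carries genes into tissues. Its label names Tnnt2 and Cre. Cre is a recombinase, and the Tnnt2 promoter, from a troponin gene of heart muscle, is a common choice for cardiac expression. In the labels, 3 libraries are of livers with AAV-Tnnt2-Cre (group Cre) and 3 of livers with AAV-Tnnt2-Cre-miR122 (group Cre-miR122). They do not say whether the miR122 element encodes the miRNA or holds sites for it, and give no strain or age. The counts are those of Cre-miR122 replicate 2. The remaining 5 libraries were not analysed here, so every value is of a single library, without a control to set it against.

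A miRNA gene is transcribed as a longer RNA that folds into a hairpin, from which a duplex of a 5p and a 3p strand is cut, and usually 1 of these arms is retained. The retained strand guides repression of mRNAs mainly through its seed, bases 2 to 8 counted from the 5′ end. Vertebrates carry the miR-23, miR-27 and miR-24 hairpins as 2 related clusters, here called a and b, and the hairpins of a cluster are cut from 1 primary transcript. miR-23 is known for repressing glutaminase, miR-27 for repressing regulators of fat metabolism and adipogenesis such as Pparg, and miR-24 for repressing cell cycle genes. The clusters have been studied in endothelial cells and in liver.

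The mature sequences are printed first because the results turn on how little the a and b forms differ. They are written as the table has them, 5′ to 3′, with the seed in capitals.
miR-23a-3p: aTCACATTgccagggatttcc
miR-23b-3p: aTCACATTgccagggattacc
miR-27a-3p: tTCACAGTggctaagttccgc
miR-27b-3p: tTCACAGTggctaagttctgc
miR-24-3p: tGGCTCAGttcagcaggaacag
miR-27a-5p: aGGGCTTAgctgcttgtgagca
miR-27b-5p: aGAGCTTAgctgattggtgaac
miR-24-2-5p: gTGCCTACtgagctgaaacagt
miR-24-1-5p: gTGCCTACtgagctgatatcagt
The 3p forms of a family share the seed, and the miR-23 and miR-27 seeds differ from each other by T7G. Counted from the 5′ end, miR-23a-3p and miR-23b-3p differ by T19A, and miR-27a-3p and miR-27b-3p by C19T. A read of 18 nt therefore cannot be given to a or b. Only the members listed here carried the miR-23 and miR-27 3p seeds among the mouse sequences. The seed of miR-24-3p was also that of miR-6361, miR-6369, miR-5124b, miR-6410 and miR-6413, and all 2664 reads with it were of miR-24-3p.

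On GRCm38 (mm10), the a cluster occupies chr8:84208518-84208921, plus strand, a span of 404 nt with Mir23a at chr8:84208518-84208592, Mir27a at chr8:84208672-84208758 and Mir24-2 at chr8:84208815-84208921. No other annotated gene of GENCODE release M21 overlaps Mir23a or Mir27a, and the long noncoding RNA gene Gm26532 begins within Mir24-2. The b cluster occupies chr13:63300484-63301275, also plus strand, a span of 792 nt with Mir23b at chr13:63300484-63300557, Mir27b at chr13:63300712-63300784 and Mir24-1 at chr13:63301208-63301275. It is inside the protein-coding gene 2010111I01Rik, of which aminopeptidase O is the product, and opposite an intron of Fancc. Mir23b is intronic in all 9 transcripts of 2010111I01Rik that span it, and Mir27b lies in an exon of 1 of 9. Mir24-1 is wholly inside an exon of 1 transcript, and exons of 3 more overlap part of it. Mir24-1 and Mir24-2 give the same miR-24-3p, so its reads cannot be divided between the clusters. Their 5p arms differ and can be told apart.

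The library held 8163802 reads over all distinct sequences of the table, which lists mature miRNAs of many species, and 6661069 of them on mouse sequences. A share below is a percentage of mouse reads, and brackets give exact 95% intervals (Clopper-Pearson for a share, from the binomial distribution given the sum for a ratio). For a sequence with 0 reads the floor is set at 3 reads, or 4.5e-05%, and the exact interval reaches 5.54e-05%. Intervals and floor cover counting error only, since PCR copies were counted as separate reads and no other animal was measured. The hepatocyte markers used as a check of the tissue label had reads for 5 of 5 members and held 62.6% of mouse reads. miR-148a-3p alone held 57.9% and the other 4 together 4.69%, of which miR-122-5p, the miRNA most typical of hepatocytes, was 3.54%. Of the lists for other cells, 6 of 7 striated muscle markers had reads and held 15.8%, above the hepatocyte list without miR-148a-3p and led by miR-1a-3p with 14.7%, 4 of 4 stellate cell and fibroblast markers 2.12%, 2 of 4 endothelial markers 0.908%, 3 of 3 red cell markers 0.0429% and 5 of 5 leukocyte markers 0.00396%. These marker shares are by mouse entries. With the end forms described below, miR-122-5p had 685102 reads against 236027 by its mouse entry, and miR-1a-3p 1065891 against 980271. miR-148a-3p had 3880217 against 3856275. The cells from which the miR-23, miR-27 and miR-24 reads came cannot be told apart in a tissue library.

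The 11 sequences together held 70005 reads, 1.05% of mouse reads (1.04 to 1.06), and miR-27b-3p alone was 86.9% of them. miR-27b-3p had 60863 reads or 0.914% (0.907 to 0.921) and was the 12th most abundant mouse sequence by mouse entries. The other 3p forms were far lower. miR-23b-3p had 3343 reads or 0.0502% (0.0485 to 0.0519), miR-24-3p had 2664 or 0.0400% (0.0385 to 0.0415) and miR-23a-3p had 2499 or 0.0375% (0.0361 to 0.0390), at ranks 40, 43 and 47. miR-27a-3p had only 137 reads by its mouse entry, 0.00206% (0.00173 to 0.00243), and stood at rank 152. The 5p arms were lower than these, with 264 reads of miR-24-2-5p, 187 of miR-27a-5p, 43 of miR-27b-5p, 3 of miR-24-1-5p and 2 of miR-23b-5p, except that miR-24-2-5p and miR-27a-5p exceeded miR-27a-3p. miR-23a-5p had 0 reads.

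**Figure D1:**
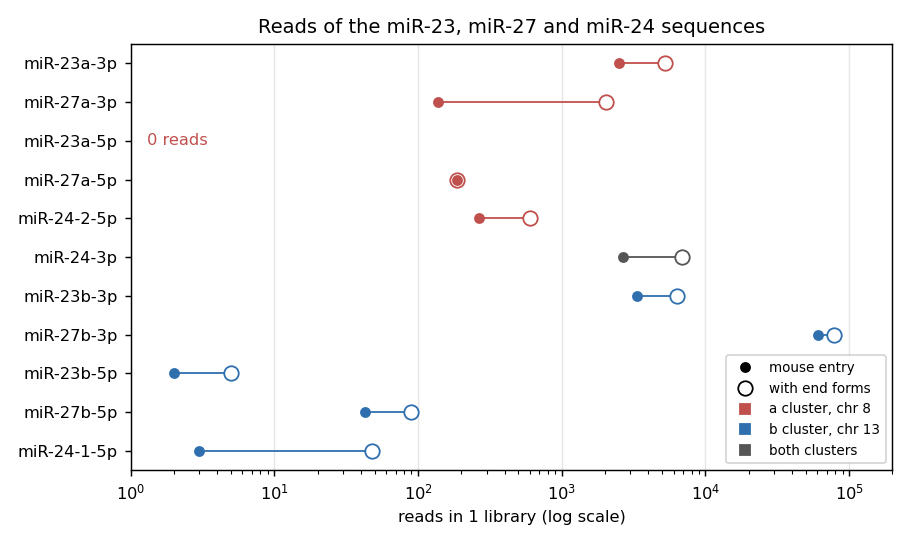
Reads of each of the 11 sequences on a log axis, in 1 library: filled points are the mouse entry and open points add the end forms that can be assigned to 1 sequence (red, a cluster; blue, b cluster; grey, both). miR-27b-3p stands alone at 60863 reads, miR-27a-3p moves farthest among the 3p forms, from 137 to 2039, and miR-23a-5p is at 0.

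The reads nearest in number to miR-27b-3p were those of miR-26a-5p, miR-192-5p and miR-206-3p above it, with 78540, 72085 and 68854, and of miR-378a-3p, miR-126a-3p and miR-127-3p below it, with 60512, 59356 and 46251. By mouse entries the share of miR-378a-3p, 0.908%, lies within the interval of miR-27b-3p, so the order of these 2 is not resolved at this depth. The order also depended on the counting. With the end forms described below, miR-378a-3p had 123839 reads, miR-126a-3p 134932 and miR-127-3p 96047, all above miR-27b-3p with 77822. miR-26a-5p, miR-192-5p and miR-206-3p stayed above it, with 94134, 82278 and 87964. In a list of 20 sequences linked to lipid and glucose metabolism, 4 had more reads than miR-27b-3p and 12 had fewer than miR-24-3p, by mouse entries. That list ran from 0 reads in 4 members to 3856275 for miR-148a-3p and 236027 for miR-122-5p, with a median of 270.5 (the list was chosen with earlier results known).

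The mouse entry records 1 pair of ends for each arm. Entries of other species with the same name record further ends, such as a 20-nt miR-27a-3p, and reads with those ends were counted there. These end forms are added next. Of 48 recorded sequences on the arms of these hairpins, 38 had reads. The 21-nt miR-27b-3p had 60863 reads and the 20-nt form inside it had 12209, so a read was not counted for every entry that it contains. Forms of 18 nt, which could be a or b, held 170 reads for miR-23 and 122 for miR-27. They are left out of the values with end forms, except as stated for the settings by name and by position given last.

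With end forms, miR-27b-3p had 77822 reads, miR-24-3p 6873, miR-23b-3p 6322, miR-23a-3p 5208 and miR-27a-3p 2039. The order of miR-24-3p and miR-23b-3p was thereby exchanged, and miR-27a-3p was 14.9 times its mouse entry. The mouse entry held 78.2% (77.9 to 78.5) of the reads of miR-27b-3p, 52.9% (51.6 to 54.1) of miR-23b-3p, 48.0% (46.6 to 49.4) of miR-23a-3p, 38.8% (37.6 to 39.9) of miR-24-3p and 6.72% (5.67 to 7.89) of miR-27a-3p. The mouse entry of miR-24-2-5p, with 264 reads, held 44.2% beside a 21-nt form with 333 reads or 55.8%, and that of miR-27a-5p, the only form recorded, 100%. Of these 7 arms with at least 100 reads, 4 were thus under 50%, against 40.2% of the 204 mouse arms at that depth, where the median was 69.3%. The members are too few to set apart from that background. miR-27a-3p had the 16th lowest value among them.

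The length of the reads differed between a and b in both families. The sequences below show why length matters for miR-27. They are the 20-nt and 21-nt forms of each, with base 19, the only difference between a and b, in capitals.
miR-27a-3p, 20 nt, 1853 reads: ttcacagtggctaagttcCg
miR-27a-3p, 21 nt, 137 reads: ttcacagtggctaagttcCgc
miR-27b-3p, 20 nt, 12209 reads: ttcacagtggctaagttcTg
miR-27b-3p, 21 nt, 60863 reads: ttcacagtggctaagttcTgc
The 20-nt form was 90.9% (89.5 to 92.1) of the miR-27a-3p reads and 15.7% (15.4 to 15.9) of the miR-27b-3p reads. There were 13.5 reads of 20 nt per read of 21 nt in miR-27a-3p (11.4 to 16.2) and 0.201 in miR-27b-3p (0.197 to 0.205), and these intervals are far apart. A 22-nt form had 4750 reads in miR-27b-3p and 0 in miR-27a-3p, where the table also records it. A 19-nt miR-27a-3p had 49 reads. These values leave out entries that differ from the hairpin at the last base, given further on. For miR-27a-3p these held 656 reads at 21 nt (C21T) and 20 at 22 nt (C22T). With them, its 20-nt share and its ratio of 20 nt to 21 nt would be lower. The table gives no such entry for miR-27b-3p, so a and b cannot be compared with them included.

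The hairpins show the template past these ends. They are from RefSeq (GRCm38.p6), written as RNA, with the mature mouse entries in capitals.
Mir27a: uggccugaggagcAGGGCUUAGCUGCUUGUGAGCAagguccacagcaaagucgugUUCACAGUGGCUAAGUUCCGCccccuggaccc
Mir27b: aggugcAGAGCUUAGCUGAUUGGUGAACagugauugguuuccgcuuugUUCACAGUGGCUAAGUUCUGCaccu

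For miR-23 the difference lay in the longer forms. miR-23a-3p had 2499 reads of 21 nt, 1961 of 22 nt and 167 of 23 nt, and a 20-nt form with 511. miR-23b-3p had 3343 of 21 nt, 628 of 22 nt and 2332 of 23 nt. The 22-nt form was thus 37.7% of miR-23a-3p (36.3 to 39.0) and 9.93% of miR-23b-3p (9.21 to 10.7), and the 23-nt form 3.21% (2.74 to 3.72) and 36.9% (35.7 to 38.1). The miR-23b-3p lengths have 2 high points, at 21 and 23 nt, and those of miR-23a-3p fall from 21 nt on. The longer forms, with the seed in capitals, are these.
miR-23a-3p, 22 nt: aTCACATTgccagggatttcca
miR-23a-3p, 23 nt: aTCACATTgccagggatttccaa
miR-23b-3p, 22 nt: aTCACATTgccagggattacca
miR-23b-3p, 23 nt: aTCACATTgccagggattaccac
No entry of the table gives a 20-nt miR-23b-3p or a 19-nt miR-27b-3p, so reads of those lengths are not seen.

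miR-24-3p was highest in its 20-nt form, with 2941 reads, against 1249 of 21 nt and 2664 of the 22-nt mouse entry. The 20-nt form exceeded the mouse entry 1.10 to 1 (1.05 to 1.16). The table records another first base on the 3p arms only in 1 form of miR-23b-3p, of 25 nt, and 1 of miR-27b-3p, of 24 nt, and both had 0 reads. For miR-23a-3p, miR-27a-3p and miR-24-3p it has no entry in which another start could be counted, so the variation seen on the 3p arms is of ends. Of the 5p arms, forms with another first base held 5 of 90 reads in miR-27b-5p and 4 of 48 in miR-24-1-5p.

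**Figure D2:**
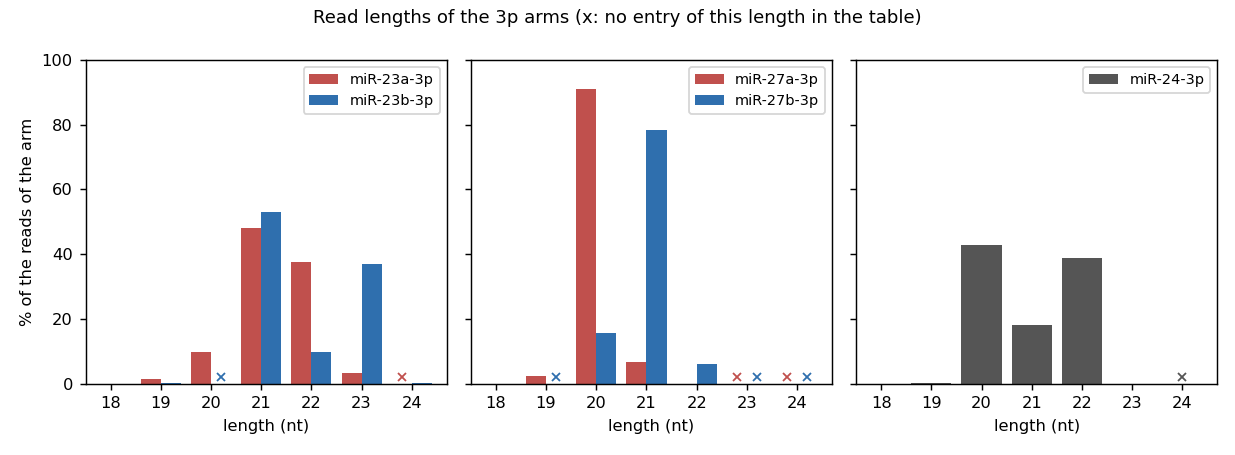
Share of the reads of each 3p arm by length in nt, for miR-23, miR-27 and miR-24, with forms of 18 nt left out for miR-23 and miR-27 and crosses where the table has no entry. The 20-nt form is 90.9% of miR-27a-3p and the 21-nt form 78.2% of miR-27b-3p, and miR-23b-3p has a second high bar at 23 nt. Entries that differ from the hairpin at the last base are not counted.

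The a and b clusters were compared through the sequences that tell them apart, and the products gave different answers. By miR-23 the clusters were close, with 0.748 reads of miR-23a-3p per read of miR-23b-3p (0.709 to 0.788), or 0.824 with end forms (0.794 to 0.855). The recorded lengths are unequal. The value with end forms includes 511 reads of 20 nt in miR-23a-3p, a length without a miR-23b-3p entry. It also includes 9 reads of 24 nt in miR-23b-3p, a length without a miR-23a-3p entry. By miR-27 the b form was far higher, with 444 reads of miR-27b-3p per read of miR-27a-3p (376 to 529), or 38.2 with end forms (36.5 to 39.9). By the 5p arms the a form was higher. miR-27a-5p had 4.35 reads per read of miR-27b-5p (3.11 to 6.21), or 2.08 with end forms (1.61 to 2.70). miR-24-2-5p of the a cluster had 264 reads against 3 of miR-24-1-5p, a ratio of 88.0 (29.8 to 429), or 597 against 48 with end forms, a ratio of 12.4 (9.26 to 17.1). The 5p arms of miR-23 had too few reads to compare, with 0 and 2. Adapters are not ligated equally well to every small RNA, so these are ratios of reads and not of molecules.

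Reads of equal length gave a wide range as well. At 21 nt the miR-23 ratio of a to b was 0.748, at 19 nt it was 7 (3.59 to 15.2, from 70 and 10 reads), at 22 nt 3.12 (2.85 to 3.42) and at 23 nt 0.0716 (0.0608 to 0.0838). miR-27b-3p exceeded miR-27a-3p 6.59 to 1 at 20 nt (6.27 to 6.92) and 444 to 1 at 21 nt. For miR-23 the order of a and b thus depended on the length read, and for miR-27 it did not at the lengths recorded for both.

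**Figure D3:**
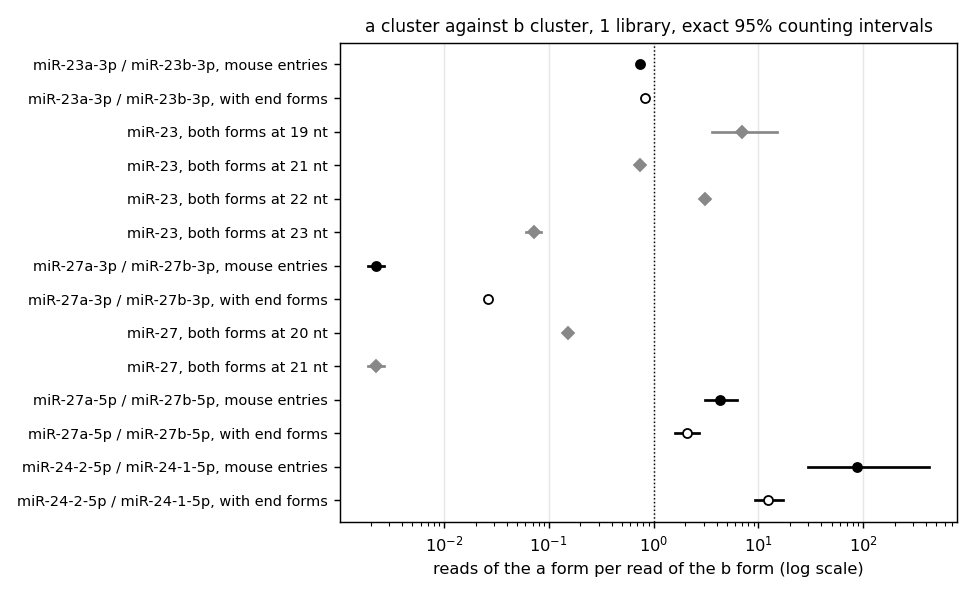
Reads of the a form per read of the b form on a log axis, with exact 95% counting intervals in 1 library; filled circles are mouse entries, open circles add end forms and diamonds compare forms of equal length. The 3p forms of miR-27 lie left of the dotted line at 1 throughout, the 5p arms lie right of it, and the 3p forms of miR-23 on either side by length.

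miR-27a-3p differs from the abundant miR-27b-3p at 1 base, so entries that differ from a 3p member of the same length at 1 base before the last are set beside it. Entries that differ at the last base, of which 4 were above the hairpin form of their length, are given further on. An entry with C11T had 1 read, or 1.64e-05 per read of the miR-27b-3p of the same length, and one with G20T had 17, or 0.000279. For miR-24-3p an entry with A21G had 10 reads, or 0.00375 per read of its mouse entry, and one with A21C had 0. Entries with T18A or A22G in miR-23b-3p, G20A in miR-27a-3p and C11T in the 20-nt miR-27b-3p had 0 reads. Longer entries with G20T had 1 read at 22 nt and 0 at 23 nt. The 21-nt miR-27a-3p had 0.00225 reads per read of the 21-nt miR-27b-3p. Of the inner-base entries with reads, only A21G in miR-24-3p had a higher value. The 20-nt miR-27a-3p had 0.152 per read of the 20-nt miR-27b-3p, above all those with reads. The entries with 0 reads cannot be placed in this order, since their hairpin forms had as few as 137 reads (G20A) and 628 (T18A). None of the entries named here changes base 19, where miR-27a-3p and miR-27b-3p differ. What part of the 137 reads came from miR-27b-3p was not tested.

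Within the a cluster, miR-23a-3p exceeded miR-27a-3p 18.2 to 1 by mouse entries (15.4 to 21.8) and 2.55 to 1 with end forms (2.43 to 2.69). Within the b cluster the order was the opposite, and miR-27b-3p exceeded miR-23b-3p 18.2 to 1 (17.6 to 18.9), or 12.3 to 1 with end forms (11.998 to 12.6). The sequences particular to the a cluster held 3087 reads, of which miR-23a-3p was 81.0%, and those of the b cluster 64254, of which miR-27b-3p was 94.7%. With end forms these totals were 8031, of which miR-23a-3p was 64.8%, and 84287, of which miR-27b-3p was 92.3%. miR-24-3p, from either cluster, had 1.07 reads per read of miR-23a-3p (1.01 to 1.13) and 0.797 per read of miR-23b-3p (0.757 to 0.839). With end forms its ratio to miR-23a-3p was 1.32 (1.27 to 1.37) and to miR-23b-3p 1.09 (1.05 to 1.13). The order of miR-24-3p and miR-23b-3p thus depended on the counting. The ratio of miR-24-3p to miR-27b-3p was 0.0438 (0.0421 to 0.0455), or 0.0883 with end forms (0.0862 to 0.0905).

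Arm use was strongly toward 3p in 3 of the 4 hairpins that have both arms to themselves. miR-23a-3p had 2499 reads and its 5p arm 0, which is at least 833-fold higher with 3 reads as the floor, or at least 1736-fold with end forms. miR-23b-3p exceeded its 5p arm 1672 to 1 (462 to 13808, from 2 reads of the 5p arm), or 1264 to 1 with end forms (542 to 3895, from 5 reads). miR-27b-3p exceeded its 5p arm 1415 to 1 (1051 to 1956), or 865 to 1 with end forms (703 to 1075). miR-27a differed: its 5p arm had 187 reads and its 3p arm 137, a ratio of 3p to 5p of 0.733 (0.583 to 0.918). With end forms that order was turned, to 10.9 reads of miR-27a-3p per read of miR-27a-5p (9.38 to 12.7). The table records only 1 form of miR-27a-5p, so other ends of that arm are not seen. miR-24-3p had 9.98 reads per read of miR-24-1-5p and miR-24-2-5p together (8.79 to 11.4), or 10.7 with end forms (9.83 to 11.6).

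The background was the 201 mouse hairpins with at least 10 reads and both arms in the table under the same name. Hairpins with a copy number in the name of only 1 arm, such as those of miR-24, were left out. Over the 201, the 3p arm was over 10-fold above the 5p arm in 31.8%. With end forms it was in 30.4% of 217. By mouse entries 3 of these 4 hairpins were past that fold, and with end forms 4 of 4. The one added was miR-27a at 10.9, whose interval, 9.38 to 12.7, includes 10, and whose 5p arm has only 1 recorded form. One arm, whichever it was, stood over 10-fold above the other in 68.7% of the 201 and, with end forms, in 64.1% of the 217. The 4 hairpins are too few to set apart from these backgrounds. Ordered by the size of the difference between arms in either direction, with any arm at 0 set to 3 reads, miR-23b, miR-27b and miR-23a stood at 13, 17 and 24 of the 201, and miR-27a at 199. Arms with 1 or 2 reads were kept as counted. The rank of miR-23a thus rests on a lower bound, and that of miR-23b by mouse entries on 2 reads of its 5p arm. With end forms miR-23a, miR-23b, miR-27b and miR-27a stood at 15, 19, 26 and 138 of 217, so the order of the first 3 depended on the counting.

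**Figure D4:**
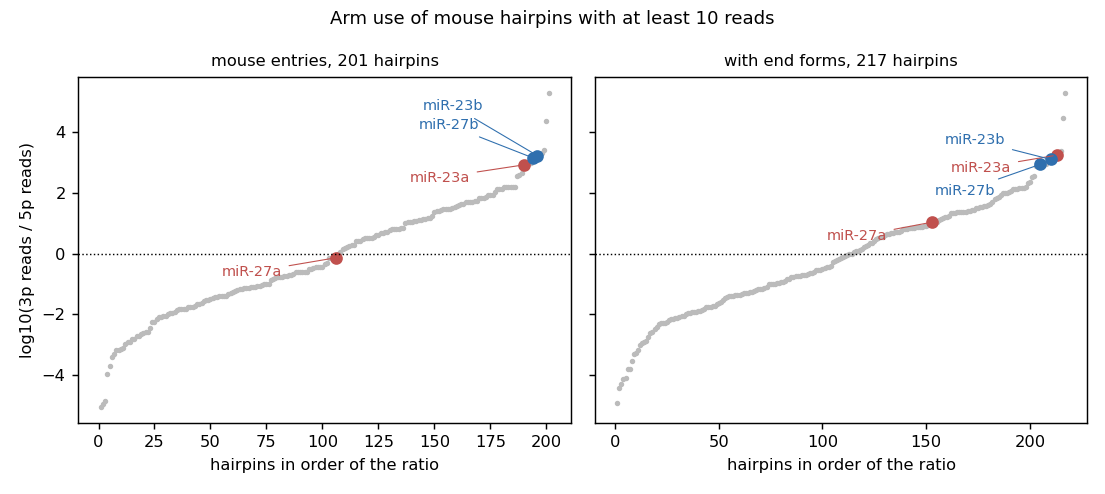
Log10 of 3p reads over 5p reads for mouse hairpins with at least 10 reads, in rising order, by mouse entries (left, 201 hairpins) and with end forms (right, 217), with an arm at 0 set to 3 reads. Only hairpins with both arms under the same name are shown. miR-23a, miR-23b and miR-27b lie near the upper end in both panels, and miR-27a moves from just below 0 to just above 1.

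Entries that match these arms in all but the last base also held reads, whose source was not tested. In miR-27a-3p an entry with C21T had 656 reads, against 137 of the 21-nt mouse entry and 1853 of the 20-nt form before that base, and an entry with C22T had 20, against 0 of the 22-nt hairpin form. In miR-23b-3p an entry with G24A had 221 reads and one with G24C 39, against 9 of the 24-nt hairpin form and 2332 of the 23-nt form. These are the sequences, with the changed base in capitals.
miR-27a-3p with C21T: ttcacagtggctaagttccgT
miR-23b-3p with G24A: atcacattgccagggattaccacA
Over the 34 pairs of a last-base form and a hairpin form of equal length with at least 100 reads between them, the changed form was the higher in 17.6%, and these 2 were among the 6 that were. The table gives no last-base entry of miR-27b-3p or miR-23a-3p, so a and b cannot be compared in this respect.

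The miRNAs annotated nearest the clusters were read as well. miR-3074, whose hairpins lie on the opposite strand of Mir24-1 and Mir24-2, had 3 reads of its 5p arm and 0 of either 3p form, beside 2664 of miR-24-3p. miR-181c and miR-181d, whose nearest mature sequence lies 29573 nt before Mir23a on the opposite strand, had 31 and 358 reads of their 5p arms and 8 and 0 of their 3p arms. By mouse entries miR-181d-5p thus had more reads than miR-27a-3p and than each 5p member. With end forms it had 395, below miR-24-2-5p with 597 and miR-27a-3p with 2039.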

How the data were processed

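Total RNA of liver was ligated to adapters at both ends, amplified and size-selected for short inserts, per the labels' protocols. The deposited table holds raw counts for each mature miRNA of many species, per the file headers, in 1 column named for Cre-miR122 replicate 2. The submitters' processing notes name mm10, while the counter and the miRNA list release were not given in the sources used here. Entries of identical sequence had equal counts (0 exceptions), and each distinct sequence was used once. End forms are entries that lie in the mouse hairpin and overlap the mouse entry by at least 15 nt. Hairpins came from GENCODE M21 and, where printed, RefSeq, whose 6 hairpins were identical, and 10 of the 11 mature names matched RefSeq. Intervals are exact at 95% and were run on simulated libraries, where the true value lay inside 95.8% of share intervals and 96.2% of ratio intervals. Shares lowered or raised 4 times, after which all shares were rescaled, were placed on the right side in 99.5% and 89.0% of cases. These libraries held counting error only, so they check the calculation and say nothing of PCR copies or other animals. With 1 library no test was run. All members are named, with every end form of at least 100 reads, list leaders and rank neighbours. Members and lists were chosen with earlier results of these data known. The scripts ran under Python 3.11.15 with SciPy 1.17.1, NumPy 2.4.6, pandas 2.3.3 and, for figures, matplotlib 3.10.9. Alternatives were other totals, end forms by name or position, and last-base forms.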

Additional observations from a re-analysis of the deposited data

Results flagged for a closer look

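Reads counted for entries of other species that match a mouse hairpin in all but the last base lie outside the mouse entries and their end forms, and 4 such entries were above the floor of 3 reads. They are miR-27a-3p with C21T, with 656 reads, miR-27a-3p with C22T, with 20, miR-23b-3p with G24A, with 221, and miR-23b-3p with G24C, with 39. The C21T reads were 35.4% of those of the 20-nt miR-27a-3p, and the G24A reads 9.48% of those of the 23-nt miR-23b-3p.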

How the results depend on the processing

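The 11 sequences held 1.05% of mouse reads, 0.858% of the reads of all sequences, 2.50% without miR-148a-3p, and 1.24% with end forms by name or by position, of mouse and end-form reads. Adding last-base forms, chosen after seeing the data, gave 1.25%. Sequences with at least 10 reads gave the same share within its interval. The ratio of miR-23a-3p to miR-23b-3p was 0.802 with end forms by name, 0.828 by position and 0.824 over entries that hold base 19. miR-27b-3p to miR-27a-3p was 38.2, 36.1 and 38.2 under the same settings, and 28.7 with last-base forms. In these ratios the 170 reads of 18 nt of miR-23 were counted for miR-23b-3p by name and for both forms by position. The 122 reads of 18 nt of miR-27 were left out by name and counted for both forms by position. miR-23a-3p to miR-27a-3p was 2.55 by name and 2.49 by position, and miR-27b-3p to miR-23b-3p was 11.99 and 12.01. The 3p to 5p ratio of miR-27a turned from 0.733 to 10.9 by name and 11.6 by position, and that of miR-27b moved from 1415 to 865 and 866. miR-23b-3p to miR-24-3p turned from 1.25 to 0.945 in both. These moves follow from the reads each setting adds. Among hairpins with both arms under the same name and at least 100 reads, 3p was over 10-fold above 5p in 39.2%. Either arm was over 10-fold above the other in 81.7% of them. Members under 10 reads have no value under the 10-read minimum. No paired analysis was possible because the counts are of 1 library, which shares its number with no other. Depth limits the 5p arms with 3 or fewer reads.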
